A study of Homo sapiens with 4 samples.

Results

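CYR61, CTGF and ANKRD1 are 3 widely used target genes of the transcriptional complex formed by YAP and the TEAD proteins, and TEAD4 binding around them was described in 2 human gastric cancer cell lines. Peaks were taken by position alone: every TEAD4 peak with its midpoint within 100 kb of the hg19 start of one of the genes was a member. The starts were base 86046444 of chromosome 1 for CYR61, base 132272518 of chromosome 6 for CTGF and base 92681033 of chromosome 10 for ANKRD1. This gave 37 of the 51017 peaks of both lists, of which 22 of 39477 were from MKN28 and 15 of 11540 from SNU216. The lines MKN28 and SNU216 were each profiled by chromatin immunoprecipitation and sequencing (ChIP-seq) with 1 TEAD4 antibody library, set against 1 input library of sonicated DNA taken without antibody. The labels give no treatment or genetic change for either line. With 1 library per line there was no replicate, and no difference between the lines was tested. The lists hold peak positions and scores but no expression values, so the identity of the cells and the activity of the genes could not be checked.

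TEAD proteins bind DNA but activate transcription mainly through the co-activators YAP and TAZ, which the Hippo kinases keep out of the nucleus. When Hippo signalling is low, YAP and TAZ enter the nucleus, join TEAD on DNA and switch on genes of growth, adhesion and matrix contact. CYR61 and CTGF, now named CCN1 and CCN2, encode related secreted proteins of the extracellular matrix that bind integrins, and ANKRD1 encodes an ankyrin repeat protein found in the nucleus and in the muscle sarcomere. In epithelial cells, their transcripts are standard readouts of YAP activity.

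Promoters are shown for CTGF and ANKRD1 alone because only these had a matching promoter sequence. A TEAD4 peak covered all 3 gene starts in both lines, and the CYR61 promoter was not searched. RefSeq promoter sequences (GRCh38.p14, 250 bases before to 50 bases after the RefSeq start, gene strand, 5′ to 3′) matched 2 of the 3 genes, CTGF and ANKRD1. The search used GGAATG for TEAD and TGANTCA for AP-1 on both strands. N stands for any base, so the AP-1 search was broad and a match is not a known AP-1 site. Capitals mark the matches, and no matches overlapped.
CTGF (chr6:131951323-131951622, minus strand): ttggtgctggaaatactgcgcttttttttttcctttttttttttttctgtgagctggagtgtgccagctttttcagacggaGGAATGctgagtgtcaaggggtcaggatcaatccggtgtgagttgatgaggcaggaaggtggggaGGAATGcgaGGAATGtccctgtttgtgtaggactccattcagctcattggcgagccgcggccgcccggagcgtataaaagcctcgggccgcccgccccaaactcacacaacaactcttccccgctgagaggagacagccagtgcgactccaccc
ANKRD1 (chr10:90921038-90921337, minus strand): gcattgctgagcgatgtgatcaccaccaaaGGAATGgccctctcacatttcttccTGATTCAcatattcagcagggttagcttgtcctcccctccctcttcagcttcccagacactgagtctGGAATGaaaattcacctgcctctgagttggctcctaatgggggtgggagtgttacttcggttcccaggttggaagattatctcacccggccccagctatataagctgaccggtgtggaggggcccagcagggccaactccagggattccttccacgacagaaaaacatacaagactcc

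The CTGF promoter held GGAATG 3 times, all on the gene strand, with first bases 169, 104 and 95 bases before the RefSeq start. The ANKRD1 promoter held it 2 times, at 220 and 128 bases before the start, and held TGATTCA 1 time, at 195 bases before the start. The CTGF promoter held no TGANTCA. Over all 35116 RefSeq promoters of the same length, 14.0% held GGAATG at least 1 time, 1.37% at least 2 times and 0.128% at least 3 times. TGANTCA, with any base at N, was found at least 1 time in 7.71% of them. These matches describe the letters only. The RefSeq starts and the hg19 starts come from different builds, and whether they fall on the same base was not tested.

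All 3 gene starts lay inside a TEAD4 peak in both lines. Bases covered by peaks made up 0.734% of chromosomes 1 to 22 and X in MKN28 and 0.170% in SNU216. The same share over gene starts was not computed, since no hg19 gene annotation was used here, and gene starts are not arbitrary bases. The 3 genes differed in how strong that peak was. It was among the strongest of each list at CTGF and ANKRD1. At CYR61 it ranked lower, within the top 24.4% in MKN28 and the top 23.3% in SNU216. The score is the value given by the authors' peak caller, whose scale the lists and labels do not state. Scores were therefore ranked within 1 list, where rank 1 is the highest score and tied peaks share the best rank.

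At the CTGF start, the MKN28 peak (chromosome 6, 132272287 to 132273010, 724 bp) scored 1650 and ranked 197 of 39477, within the top 0.499% of the list. The SNU216 peak there (132272413 to 132272867, 455 bp) scored 814 and ranked 153 of 11540, within the top 1.33%. The midpoints of the pair lay 130 bp upstream of the start in MKN28 and 122 bp upstream in SNU216, and were thus 8 bp apart. The MKN28 peak ran from 492 bp upstream to 231 bp downstream of the start, and the SNU216 peak from 349 bp upstream to 105 bp downstream. The narrower SNU216 peak lay wholly inside the MKN28 peak. It was the strongest peak within 100 kb of CTGF in either line.

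At the ANKRD1 start, the MKN28 peak (chromosome 10, 92680734 to 92681721, 988 bp) scored 1466 and ranked 283, within the top 0.717%. The SNU216 peak (92680876 to 92681472, 597 bp) scored 995 and ranked 88, within the top 0.763%. The midpoints lay 194 bp upstream in MKN28 and 141 bp upstream in SNU216. The pair stood at nearly the same relative place in both lists, and it was the strongest near ANKRD1 in both. The MKN28 peak reached from 688 bp upstream to 299 bp downstream, and the SNU216 peak from 439 bp upstream to 157 bp downstream.

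At the CYR61 start, the MKN28 peak (chromosome 1, 86046209 to 86046586, 378 bp) scored 203 and ranked 9635, within the top 24.4%. The SNU216 peak (86046095 to 86046480, 386 bp) scored 166 and ranked 2694, within the top 23.3%. These midpoints lay 47 bp upstream in MKN28 and 157 bp upstream in SNU216. Both lists thus placed the CYR61 start peak above most others and well under the start peaks of CTGF and ANKRD1. It was also narrow in MKN28, where 85.2% of all peaks were at least as wide, against 56.7% in SNU216.

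**Figure D1:**
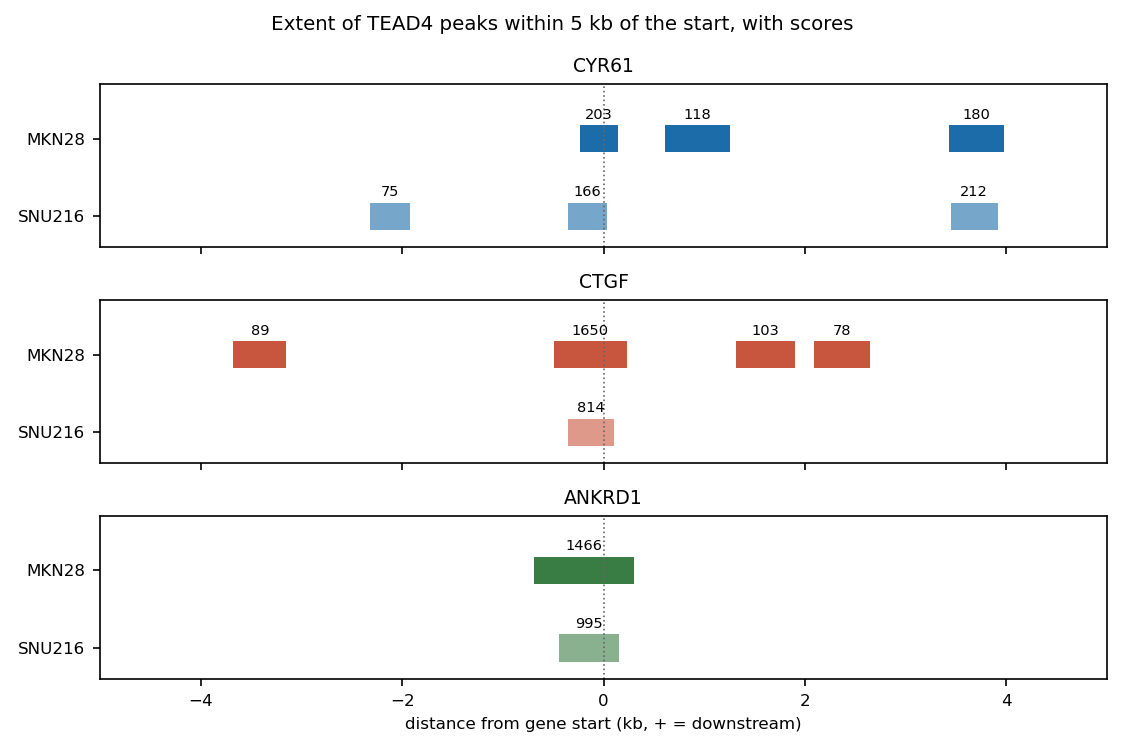
Extent of every TEAD4 peak with its midpoint within 5 kb of the start of CYR61, CTGF or ANKRD1, with distance from the start in kb along the gene on the x axis and the peak score printed above each bar; MKN28 is the upper row and SNU216 the lower row of each panel, and the dotted line is the gene start. A bar crosses the start of every gene in both lines, with scores of 1650 and 814 at CTGF, 1466 and 995 at ANKRD1 and 203 and 166 at CYR61 (MKN28 and SNU216).

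The strongest TEAD4 site near CYR61 was not at its start but 26.8 kb downstream in MKN28 and 26.5 kb downstream in SNU216. The MKN28 peak (86072401 to 86074038, 1638 bp) had a score of 3100 and rank 7. That rank is shared by 10 peaks tied at exactly 3100, with 6 peaks above them. The SNU216 peak (86072491 to 86073419, 929 bp) scored 1928 and had rank 8. It was the highest-ranked peak near any of the 3 genes in both lists. Only 0.327% of MKN28 peaks and 1.91% of SNU216 peaks were at least as wide. In RefSeq order, CYR61 lies between the protein-coding genes DDAH1 and ZNHIT6, and downstream is the side of ZNHIT6. The peak's distance to CYR61 does not show which gene it serves.

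A pair of weaker sites followed on the same side of CYR61. The first, 31.2 kb downstream in MKN28 (86077213 to 86078155, 943 bp), scored 374 with rank 4679. In SNU216 it lay at 31.4 kb (86077571 to 86078075, 505 bp) and scored 238 with rank 1706. The next, at 32.3 kb in MKN28 (86078210 to 86079289, 1080 bp), scored 676 with rank 1833. Its SNU216 partner at 32.1 kb (86078360 to 86078803, 444 bp) scored 230 with rank 1809. The order of these neighbours by score thus differed between the lines: in MKN28 the farther one was higher, whereas in SNU216 their scores were close.

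Another pair lay just past the CYR61 start region, 3.70 kb downstream in MKN28 (86049876 to 86050420, 545 bp) with a score of 180 and rank 10941. In SNU216 it lay at 3.68 kb (86049891 to 86050359, 469 bp) and scored 212 with rank 1977. This was 1 of 2 pairs near the 3 genes in which the SNU216 score was the higher one. The most distant of the CYR61 pairs was upstream, on the DDAH1 side. It was found at 85.1 kb in MKN28 (85961003 to 85961674, 672 bp) with a score of 589 and rank 2363. In SNU216 it lay at 85.0 kb (85961064 to 85961739, 676 bp) and scored 360 with rank 879.

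Peaks called near CYR61 in 1 line were weaker than most of these pairs. In MKN28 they lay 53.4 kb upstream (85992773 to 85993267, 495 bp, score 294, rank 6363), 936 bp downstream (86047056 to 86047704, 649 bp, score 118, rank 16697) and 90.6 kb downstream (86136930 to 86137220, 291 bp, score 76.7, rank 25289). In SNU216 they lay 35.9 kb upstream (86010356 to 86010738, 383 bp, score 63.9, rank 8140) and 2.12 kb upstream (86044127 to 86044521, 395 bp, score 74.7, rank 6680). The MKN28 peak at 936 bp had its nearest SNU216 midpoint 1.09 kb away, and the SNU216 peak at 2.12 kb had its nearest MKN28 midpoint 2.07 kb away. A site missing from a list was not called there, which is no proof that TEAD4 was absent.

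CTGF had 8 peaks in MKN28 and 2 in SNU216, in lists of 39477 and 11540 peaks. That difference rested on weak MKN28 peaks. Counting peaks that scored 100 or more, CTGF had 3 in MKN28 and 2 in SNU216, and with an MKN28 list cut to the length of the SNU216 list it had 1 in MKN28 and 2 in SNU216. Both SNU216 peaks had MKN28 partners. The second of them lay 91.4 kb downstream of the start in both lines, on the side of ENPP1, with midpoints 9 bp apart. It scored 94.2 with rank 20851 in MKN28 (132180805 to 132181366, 562 bp) and 140 with rank 3323 in SNU216 (132180852 to 132181336, 485 bp). This was the other pair with a higher SNU216 score, and it stood at the top 52.8% of the MKN28 list and the top 28.8% of the SNU216 list. Distance to CTGF does not show which gene a peak serves. Whether the distal peaks on this side lie within ENPP1 was not determined.

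The 6 of 8 CTGF peaks found in MKN28 alone lay beside the shared sites. Over the whole MKN28 list, 82.9% of peaks had no SNU216 partner, so that count is no larger than the list gives. All 6 ranked below 11540 in MKN28, from 11929 to 36472. Around the start, they lay 3.41 kb upstream (132275670 to 132276194, 525 bp, score 89.1, rank 21863), 1.61 kb downstream (132270616 to 132271204, 589 bp, score 103, rank 19008) and 2.37 kb downstream (132269869 to 132270424, 556 bp, score 77.6, rank 24999). Beside the distal site, they lay 83.3 kb downstream (132188978 to 132189435, 458 bp, score 53.6, rank 36472), 87.3 kb downstream (132185077 to 132185380, 304 bp, score 66.0, rank 29228) and 88.7 kb downstream (132183474 to 132184183, 710 bp, score 166, rank 11929). Each of the 6 had an SNU216 midpoint between 1.73 and 8.11 kb away. Of these, 2 scored 100 or more. No MKN28 or SNU216 peak lay between 2.37 and 83.3 kb downstream of the CTGF start.

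ANKRD1 had 5 peaks in each line, and those with a partner all lay at the start or upstream of it, on the side of PCGF5. The second strongest site was 10.0 kb upstream in MKN28 (92690648 to 92691516, 869 bp), with a score of 1236 and rank 481. In SNU216 it was 10.1 kb upstream (92690761 to 92691490, 730 bp), with a score of 746 and rank 187. Its scores were below those of the start peak, which were 1466 in MKN28 and 995 in SNU216. It stood within the top 1.22% of the MKN28 list and the top 1.62% of the SNU216 list. Another pair lay 47.7 kb upstream in MKN28 (92728228 to 92729266, 1039 bp, score 439, rank 3722) and 48.0 kb upstream in SNU216 (92728799 to 92729361, 563 bp, score 149, rank 3100). That last pair had the widest offset among the pairs near the 3 genes, with midpoints 333 bp apart.

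The other ANKRD1 peaks were called in 1 line each. In MKN28 they lay 26.6 kb upstream (92707351 to 92707899, 549 bp, score 305, rank 6091) and 9.47 kb downstream (92671410 to 92671722, 313 bp, score 62.0, rank 31153). In SNU216 they lay 8.15 kb upstream (92689042 to 92689326, 285 bp, score 50.5, rank 11431) and 85.3 kb upstream (92766069 to 92766544, 476 bp, score 51.6, rank 11168). Both SNU216 peaks sat at the lower end of that list, whose lowest score was 50.01. The first of them was 1.90 kb from the midpoint of the strong site at 10.0 kb in MKN28.

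**Figure D2:**
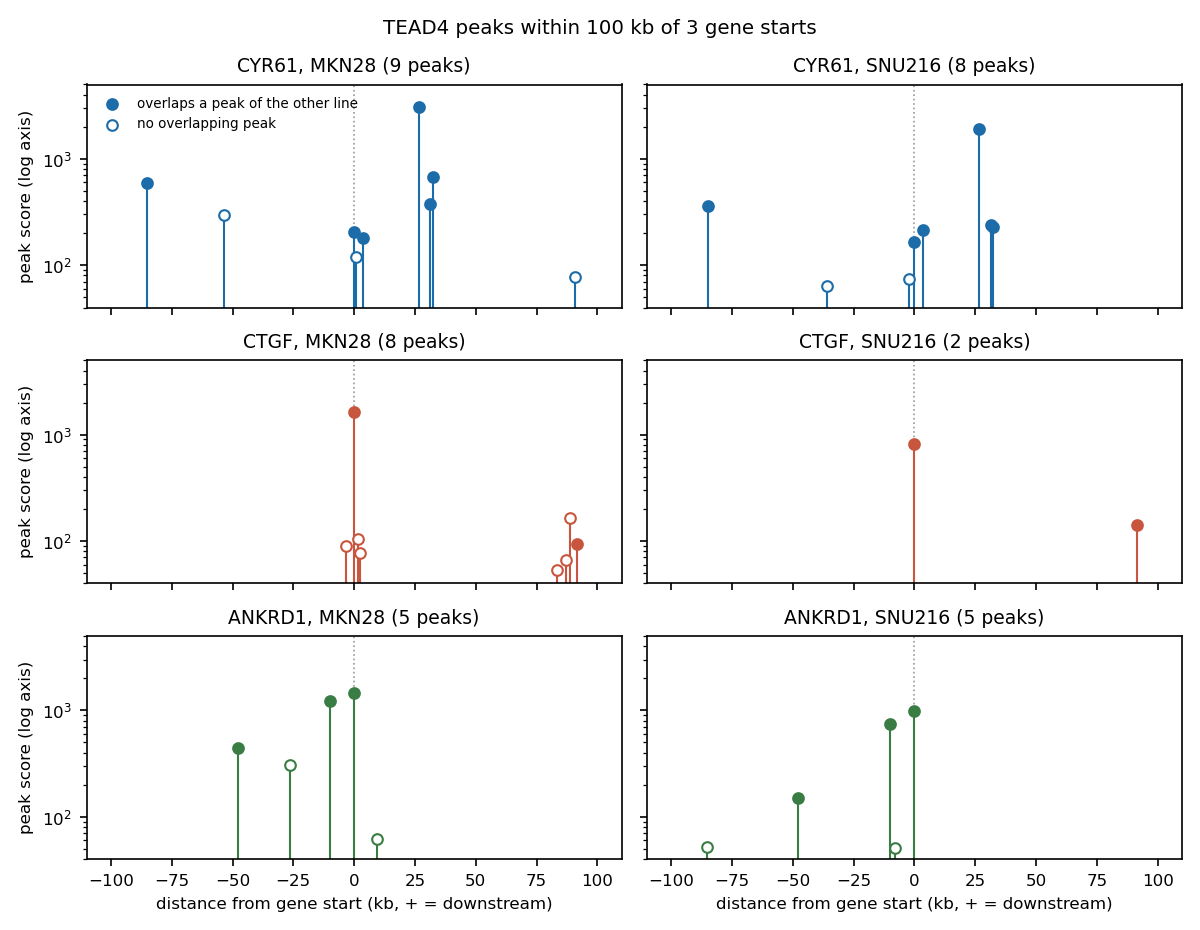
TEAD4 peaks within 100 kb of the starts of CYR61, CTGF and ANKRD1 in MKN28 (left) and SNU216 (right), with distance from the start in kb along the gene on the x axis and peak score on a log y axis; filled points overlap a peak of the other line and open points do not. The highest point is downstream of the start at CYR61 (3100 in MKN28 and 1928 in SNU216) and at the start at CTGF and ANKRD1, and most of the 8 CTGF peaks of MKN28 are weak.

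Peaks beyond the limit of 100 kb came closest to it at CYR61. Just inside lay the MKN28 peak at 90.6 kb with its score of 76.7, and just outside, at 102.6 kb downstream, an MKN28 peak scored 54.7. On the upstream side, the next peaks were 129 kb from the CYR61 start in both lists, with scores of 98.6 in MKN28 and 144 in SNU216. At CTGF the next peaks upstream were at 128 kb in MKN28 (score 61.7) and 134 kb in SNU216 (score 57.0). Downstream of CTGF, the next MKN28 peak at 139.7 kb scored 339 with rank 5322, higher than every MKN28 peak within 100 kb of CTGF except the one at its start. The next SNU216 peak on that side was 2107 kb away (score 83.1). At ANKRD1 the next peak upstream was at 133 kb in MKN28 (score 72.6), against 264 kb in SNU216 (score 78.2). Downstream of ANKRD1 it was at 140.5 kb in MKN28 (score 94.8), against 233 kb in SNU216 (score 63.0), and downstream of CYR61 the next SNU216 peak was at 269.6 kb (score 91.5).

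Sites near the 3 genes were often found in both lines. In MKN28, 11 of the 22 peaks (exact 95% Clopper-Pearson interval 28.2 to 71.8%) overlapped an SNU216 peak by at least 1 bp, against 17.1% of the whole MKN28 list. In SNU216, 11 of the 15 peaks (73.3%, 44.9 to 92.2) overlapped an MKN28 peak, against 59.3% of the whole SNU216 list, a share that the interval holds. By gene, 6 of 9 MKN28 peaks and 6 of 8 SNU216 peaks had a partner at CYR61. The counts were 2 of 8 in MKN28 and 2 of 2 in SNU216 at CTGF, and 3 of 5 in each line at ANKRD1. Neighbouring peaks are not independent, and the intervals cover counting error only. With only the 11540 best MKN28 peaks kept, 12 were left near the 3 genes and 10 of these (83.3%) had an SNU216 partner, against 35.2% of that shortened MKN28 list. In the other direction, 10 of the 15 SNU216 peaks (66.7%) had a partner in it, against 36.1% of the SNU216 list.

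Peaks near the 3 genes leaned toward high scores in both lists. Scores of 100 or more were found for 15 of the 22 MKN28 peaks, against 49.9% of that list, and for 11 of the 15 SNU216 peaks, against 42.2% of that list. The top 10.0% of its own list by score held 7 of the 22 MKN28 peaks and 5 of the 15 SNU216 peaks. Those 7 MKN28 peaks were 3 at CYR61, 1 at CTGF and 3 at ANKRD1, and the 5 SNU216 peaks were 2, 1 and 2 at the same genes. The median score was 192 for the MKN28 members, against 99.8 for the MKN28 list. It was 212 for the SNU216 members, against 84.7 for the SNU216 list.

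The high-scoring members were mostly those with a partner. Their median score was 589 in MKN28, against 226 for all MKN28 peaks with a partner, and 238 in SNU216, against 115 for all SNU216 peaks with a partner. Members without a partner had a median of 89.1 in MKN28, against 88.6 for all MKN28 peaks without one, and of 57.7 in SNU216, against 64.8 for all SNU216 peaks without one. The highest score of a member without a partner was 305 in MKN28 and 74.7 in SNU216. The 4 SNU216 members without a partner, from 50.5 to 74.7, all scored below the lowest SNU216 member with one, at 140.

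**Figure D3:**
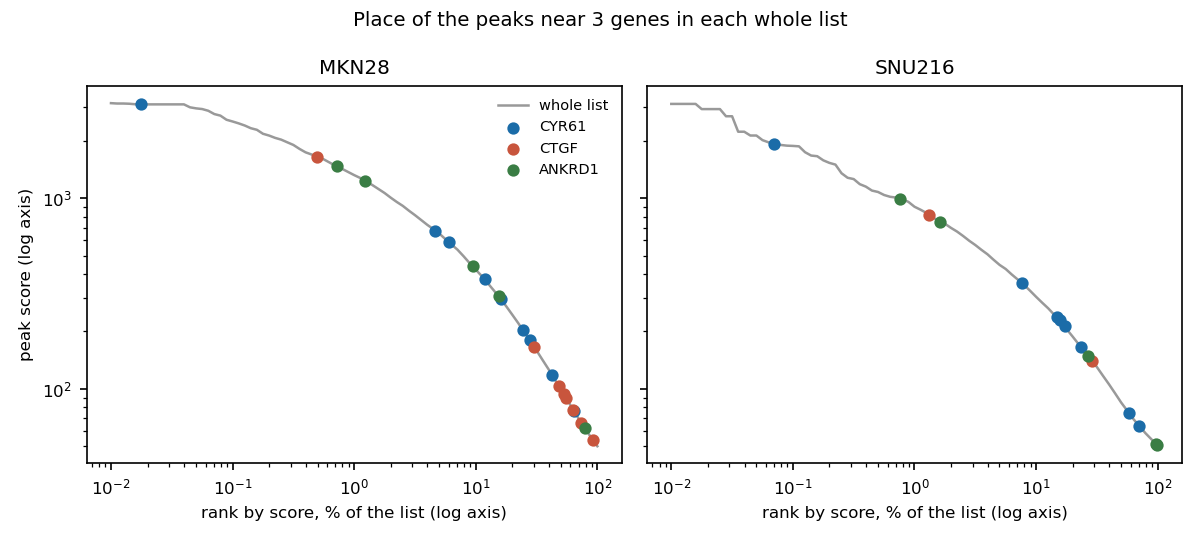
Score (log y axis) against rank as a percentage of the list (log x axis) for the peaks near CYR61, CTGF and ANKRD1 (coloured points) on the curve of the whole list (grey), with MKN28 on the left and SNU216 on the right. In both lists 1 CYR61 peak is farthest left (top 0.0177% in MKN28 and 0.0693% in SNU216), followed by peaks of CTGF and ANKRD1.

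The scores of the 11 overlapping pairs were higher in MKN28 in 9 pairs and higher in SNU216 in 2. Most of all 6841 pairs were higher in MKN28 as well, since even the lower quartile of their ratios lay above equal scores. The ratio of the MKN28 to the SNU216 score had a median of 1.61 and ranged from 0.672, at the distal CTGF site, to 2.95, at the ANKRD1 site 48 kb upstream. Over all 6841 SNU216 peaks with a partner the median ratio was 1.77 (quartiles 1.01 and 3.30), and 9 of the 11 pairs near the 3 genes lay between those quartiles. The pairs at the starts had ratios of 2.03 at CTGF, 1.47 at ANKRD1 and 1.22 at CYR61. The strong site downstream of CYR61 had a ratio of 1.61, with its MKN28 score at the value where scores pile up. Such scores depend on sequencing depth, which is unknown for both libraries, and the ratios therefore describe these libraries and not a difference in occupancy. Overlapping midpoints were 8 to 333 bp apart, with a median of 63 bp, against 55 bp over all pairs.

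**Figure D4:**
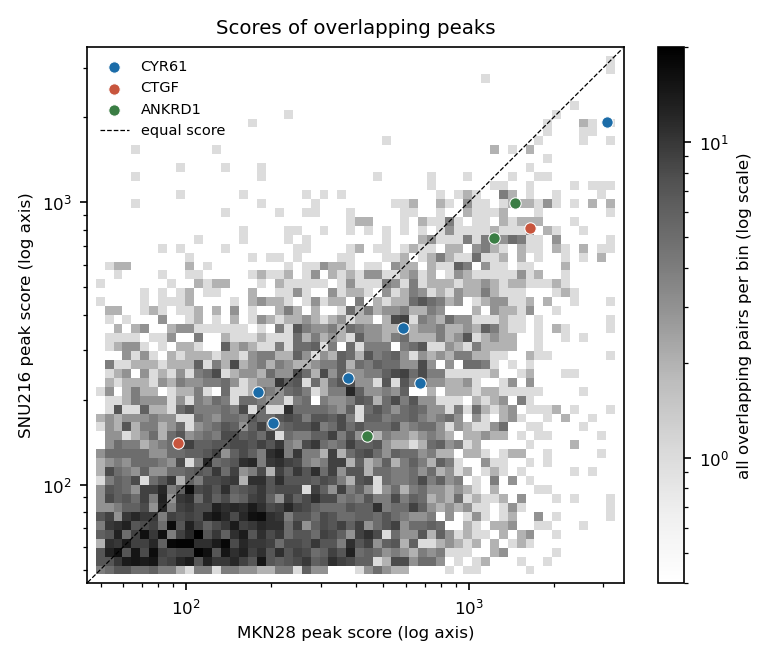
Score in MKN28 (x axis, log) and in SNU216 (y axis, log) of the 11 overlapping pairs near CYR61, CTGF and ANKRD1 (coloured points) over the density of all 6841 pairs (grey bins), with the dashed line at equal scores. The points of 9 pairs lie on the MKN28 side of the line, as do most of all 6841 pairs. Those of a CYR61 site and a CTGF site lie on the SNU216 side.

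The surroundings of CYR61 held more TEAD4 peaks than those of the other genes in both lines. Of 15169 adjacent windows of 200 kb, 68.4% held at least 1 MKN28 peak and 37.7% at least 1 SNU216 peak, with a median of 2 MKN28 and 0 SNU216 peaks. At least as many peaks as around CYR61 were found in 5.95% of windows in MKN28 (9 peaks) and in 0.481% in SNU216 (8 peaks). For ANKRD1, with 5 peaks in each line, the shares were 20.9% in MKN28 and 2.78% in SNU216. For CTGF they were 8.29% in MKN28 (8 peaks) and 17.6% in SNU216 (2 peaks). In MKN28 the order of CTGF and ANKRD1 depended on weak peaks: among peaks that scored 100 or more, the shares were 1.69% for CYR61, 11.6% for ANKRD1 and 18.7% for CTGF. In SNU216 the order was kept at that score, with 0.251% for CYR61, 2.90% for ANKRD1 and 6.82% for CTGF.

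**Figure D5:**
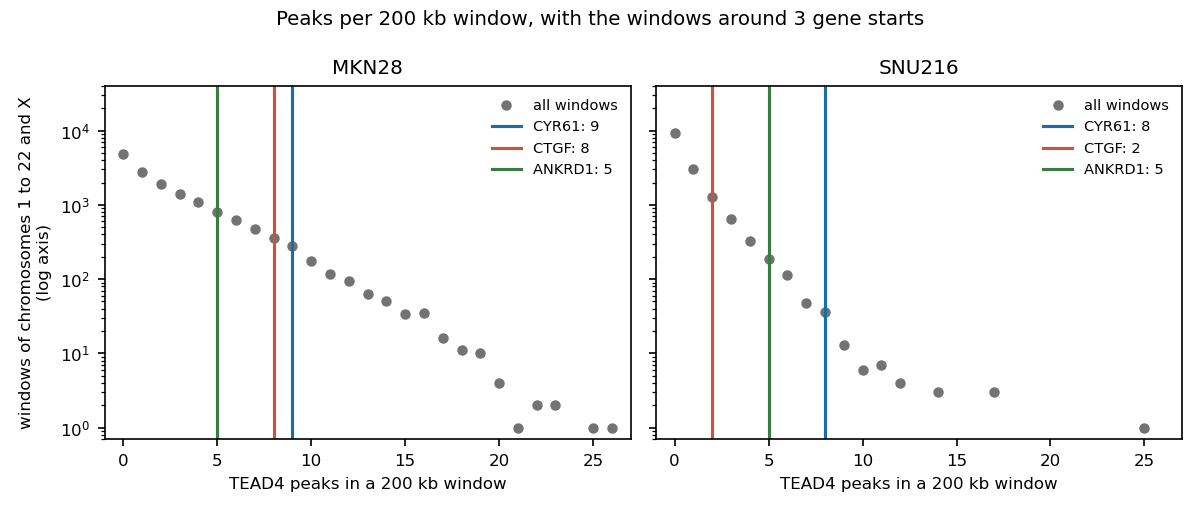
Number of 200 kb windows of chromosomes 1 to 22 and X (log y axis) by the number of TEAD4 peaks they hold (x axis), for MKN28 on the left and SNU216 on the right; coloured lines mark the counts around the starts of CYR61, CTGF and ANKRD1. CYR61 lies farthest right in both lists (9 peaks in MKN28 and 8 in SNU216), and CTGF has 8 peaks in MKN28 and 2 in SNU216, of which 3 and 2 score 100 or more.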

How the data were processed

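TEAD4 ChIP-seq was analysed from 2 peak lists, 1 for MKN28 and 1 for SNU216, each from 1 TEAD4 library called against 1 input library, with no pooling, per the names of the deposited lists. Per the submitters' processing notes, the tools were CASAVA 1.8, Bowtie2 2.0.0 and MACS, on the build hg19. Settings were not given in the sources used here. Each deposited score is the authors' value for 1 peak. Its scale is not stated, and the depth of the libraries is unknown.

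Positions were converted to 1-based hg19 coordinates. A peak was a member when its midpoint lay within 100 kb of a gene start, with distances signed along the gene. The strands of CTGF and ANKRD1 came from RefSeq and that of CYR61 from textbook knowledge. Every member is named. Overlap meant at least 1 shared bp, and the partner with the highest score was used. Chromosome lengths of hg19 were those bundled with GenomeInfoDb. RefSeq tables on GRCh38.p14 gave promoter letters and the names of neighbouring genes only. Other genes of the TEAD pathway were not counted, since no hg19 gene annotation was used here. The genes, lists and comparisons were chosen with earlier results of these data known. Alternatives were a score minimum of 100, an MKN28 list of equal length, windows of 50 and 200 kb, stricter overlap and other window grids. The steps were tested on simulated data. The tools were pandas 2.3.3, scipy 1.17.1 and numpy 2.4.6 under Python 3.11.15.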

Additional observations from a re-analysis of the deposited data

How the results depend on the processing

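Of 62 values recomputed under another setting, 46 met a tolerance and 16 did not. The tolerance was a factor of 1.5 for counts and window shares, the exact 95% interval for overlap shares, and equality for scores and distances. Some outcomes were fixed in advance. The strongest peak at each gene lay within 50 kb, and every start peak scored above 100, so those settings could not change the strongest score or the distance. The tally is therefore no measure of robustness. With the MKN28 list limited to 11540 peaks, 12 MKN28 peaks were left near the 3 genes, and 83.3% of them overlapped an SNU216 peak, against 35.2% of all peaks of that shortened list. Under that setting the shares of 200 kb windows holding at least as many MKN28 peaks were 0.659% for CYR61, 37.9% for CTGF and 4.88% for ANKRD1. Among peaks that scored 100 or more, the MKN28 shares were 1.69% for CYR61, 18.7% for CTGF and 11.6% for ANKRD1, and the SNU216 shares were 0.251% for CYR61 and 6.82% for CTGF. Measured to the nearest edge, all 6 distances from a start to its nearest peak were 0, since a peak covered every start. When 50% of both peaks had to overlap, or midpoints had to lie within 200 bp, 9 pairs were left. Windows of 50 or 200 kb on each side gave 15 or 30 MKN28 peaks and 12 or 17 SNU216 peaks, with the same strongest peak at each gene. No replicate could be left out, and no paired analysis was possible because each line has 1 library. Unknown depth limits every statement on a peak found in 1 list.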

Other observations

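Downstream of CTGF, on the side of ENPP1, the SNU216 list was empty over a long stretch that was noticed after the values were seen. The midpoint of the next SNU216 peak past the distal CTGF site lay 2.02 Mb away (chromosome 6, midpoints 130165872 and 132181094). Of the 11499 distances between neighbouring SNU216 peaks on chromosomes 1 to 22 and X, 186 (1.62%) were at least as long, and the median was 80.2 kb. MKN28 had 15 peaks in that stretch, of which 9 scored at least 100 and the highest scored 339. Over all windows of 200 kb, MKN28 had a mean of 2.60 peaks, so that stretch was below the MKN28 average too. It was also the longest of the SNU216 stretches flanking the peaks near the 3 genes. For the others, between 27.1% and 61.7% of the SNU216 distances were at least as long.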
